A study of Homo sapiens with 24 samples.

Results

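The 28 genes described here encode the enzymes that turn acetyl-CoA into cholesterol, the sterol regulatory element-binding proteins (SREBPs) that control those enzymes, and carriers or degraders that set how sterol moves through the cell. They were chosen by name. Of the 28, 27 were found by symbol in a deposited table of 25082 genes, and SC5D was found under its older symbol SC5DL. All 28 passed the filter on low values, so none is left out of the tests. The table holds RNA-seq values of SET2, an established human megakaryoblastic cell line from a myeloproliferative neoplasm that grows on JAK2 signalling. It has 24 libraries in 8 groups of 3. One group is naive cells with no inhibitor. Another 3 groups are naive cells exposed to DMSO (the vehicle) for 4 h, to INC424 for 4 h or to INC424 for 48 h. The remaining 4 groups are persistent lines grown continuously in BMS911543, CYT387, INC424 or SAR302503, all of them type I JAK inhibitors, which bind the active form of the kinase. INC424 is the code name of ruxolitinib, CYT387 of momelotinib and SAR302503 of fedratinib. All groups were kept in RPMI1640 with 20% FCS, a medium that contains serum lipoproteins. The labels give no inhibitor concentration, name 1 line for each inhibitor and give no vehicle control for 48 h.

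Cells make cholesterol from acetyl-CoA through mevalonate, squalene and lanosterol. When sterol in the endoplasmic reticulum is low, the escort protein SCAP carries SREBPs to the Golgi, where they are cut and released to switch on most genes of the pathway. When sterol is high, the INSIG proteins hold SCAP back, and INSIG1 is itself an SREBP target, which closes a feedback loop. Blood cells also take up cholesterol in lipoproteins and release it from lysosomes through NPC1 and NPC2.

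Promoters of SREBP targets commonly pair a sterol regulatory element with a CCAAT box, bound by NF-Y, or with a GC box, bound by Sp1. Of the 28 genes, 25 had an entry in the RefSeq promoter table (GRCh38.p14), and the 250 bases before each start were searched on both strands. The motifs were the sterol regulatory element (ATCAC, any 1 base, then CCAC), the E-box CACGTG, the box CCAAT and the GC box GGGCGG. Motifs may share bases where they adjoin, and each was then counted. A CCAAT box stood in 17 of the 25 promoters (68.0%) and in 33.0% of all 27305 promoters of the table, and at least 2 stood in 11 (44.0%) and in 10%. A GC box stood in 23 (92.0%, against 42.3%) and an E-box in 3 (12%, against 6.49%), namely those of SCAP, INSIG1 and SC5D. The sterol regulatory element as spelled here was found in 1, that of SREBF2, and in 0.125% of all promoters. These shares were not matched for base composition, and a match is not a bound site. The 5 stretches below are shown because INSIG1, HMGCS1, MSMO1 and MVK were among the genes that rose between 4 h and 48 h of INC424, and SREBF2 carries the 1 sterol regulatory element. They are read 5′ to 3′ on the gene's strand, and capitals mark the sterol regulatory element (ATCACCCCAC, 134 bases before the start of SREBF2), the E-box (55 bases before the start of INSIG1) and the CCAAT boxes, which read ATTGG on the other strand.
SREBF2 (chr22:41832945-41833044, forward strand): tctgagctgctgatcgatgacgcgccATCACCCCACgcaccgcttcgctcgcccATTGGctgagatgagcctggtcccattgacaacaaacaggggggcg
INSIG1 (chr7:155297698-155297847, forward strand): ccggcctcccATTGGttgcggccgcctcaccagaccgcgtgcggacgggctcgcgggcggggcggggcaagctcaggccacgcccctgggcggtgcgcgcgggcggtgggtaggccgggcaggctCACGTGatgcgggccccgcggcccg
HMGCS1 (chr5:43313473-43313592, reverse strand): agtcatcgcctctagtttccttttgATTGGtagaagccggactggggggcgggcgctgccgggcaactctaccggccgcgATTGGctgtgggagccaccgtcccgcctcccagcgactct
MSMO1 (chr4:165327469-165327648, forward strand): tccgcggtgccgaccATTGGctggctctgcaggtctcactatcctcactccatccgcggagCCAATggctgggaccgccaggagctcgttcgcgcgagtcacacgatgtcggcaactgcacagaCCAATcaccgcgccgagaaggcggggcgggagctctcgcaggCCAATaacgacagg
MVK (chr12:109573574-109573773, forward strand): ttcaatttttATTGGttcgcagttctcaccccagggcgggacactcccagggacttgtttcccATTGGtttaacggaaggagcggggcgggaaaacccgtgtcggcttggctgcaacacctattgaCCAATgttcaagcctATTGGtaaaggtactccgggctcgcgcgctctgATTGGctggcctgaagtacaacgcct
The MSMO1 promoter held 4 CCAAT boxes and the MVK promoter 5. Of the 14 genes called higher at 48 h than at 4 h of INC424, 13 had a promoter in the table, and 11 of those had a CCAAT box, 7 of them at least 2. Of the other 14 genes, 12 had a promoter, 6 of those had a CCAAT box and 4 had at least 2.

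The libraries ranged from 21770721 to 36160750 reads over genes, and the 28 genes took 0.213 to 0.291% of them. Levels below are the authors' normalised counts, listed in the order of libraries 1 to 3 of a group or as mean ± SD (n = 3). Differences are fitted on log2(normalised count + 1), with the standard error (SE) and a p-value from limma adjusted by Benjamini-Hochberg over 20154 genes, and a gene is called at an adjusted p under 0.05. The labels do not say whether the 3 libraries of a group came from separate cultures, so p-values measure the spread between these libraries, which may be technical. Of the megakaryocyte markers 11 of 12 were in the table, with ITGA2B, GP1BA and ITGB3 above 0 in every library and PF4 at 0 in 17 of 24. Library 2 of the CYT387 line stood apart, with squamous epithelial markers (10 genes) at 0.494% and stroma, vessel and macrophage markers (9 genes in the table) at 0.623% of its reads. In the other 23 libraries these sums were at most 0.106% and 0.00129%. Lymphoid markers were at most 0.00433% of reads in any library.

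After 4 h of INC424, with DMSO as the control, 7 of the 19 enzyme genes fell and 1 rose, while 3 of the 5 regulator genes rose. Of the 28 genes, 12 were called against DMSO, 5 higher and 7 lower (20.1% of all genes tested were called, 11.5% higher and 8.56% lower). The 7 that fell all encode enzymes of synthesis (ACAT2, HMGCS1, IDI1, SQLE, MSMO1, SC5D and DHCR7). The 5 that rose were SREBF1, SREBF2, INSIG2, MYLIP and the enzyme HSD17B7. The median difference of the 28 was 0.01 (log2), against -0.01 over all genes tested.

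By 48 h more genes of the pathway had risen than fallen. Between 4 h and 48 h of INC424, 17 of the 28 were called, 14 higher and 3 lower (29.6% of all genes, 14.8% higher and 14.9% lower). The rises ran through the pathway: HMGCS1, MVK, MVD, IDI1, FDFT1, LSS, TM7SF2, MSMO1, HSD17B7, DHCR7, INSIG1, STARD4, NPC1 and NPC2. ACAT2, FDPS and MYLIP fell. The median was 0.31, against 0.03 over all genes. Against DMSO, 16 were called at 48 h, 14 higher and 2 lower (48.2% of all genes, 24.8% higher and 23.4% lower), with a median of 0.33 against 0.00. HMGCS1 and MSMO1 were the genes called lower at 4 h and higher at 48 h against DMSO. Of the 7 enzymes that were lower at 4 h, 4 were called higher at 48 h than at 4 h, and 2 (ACAT2 and SC5D) were still lower than DMSO at 48 h. The 2 comparisons with DMSO use the same 3 DMSO libraries. Time in culture and time in INC424 cannot be told apart at 48 h. When the 12 libraries of the lines were fitted together with these 12, only 3 of the 28 genes were called at 4 h and 9 between the times. The shares of all genes called in that fit are not given here, so whether the drop is particular to the 28 cannot be told.

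**Figure D1:**
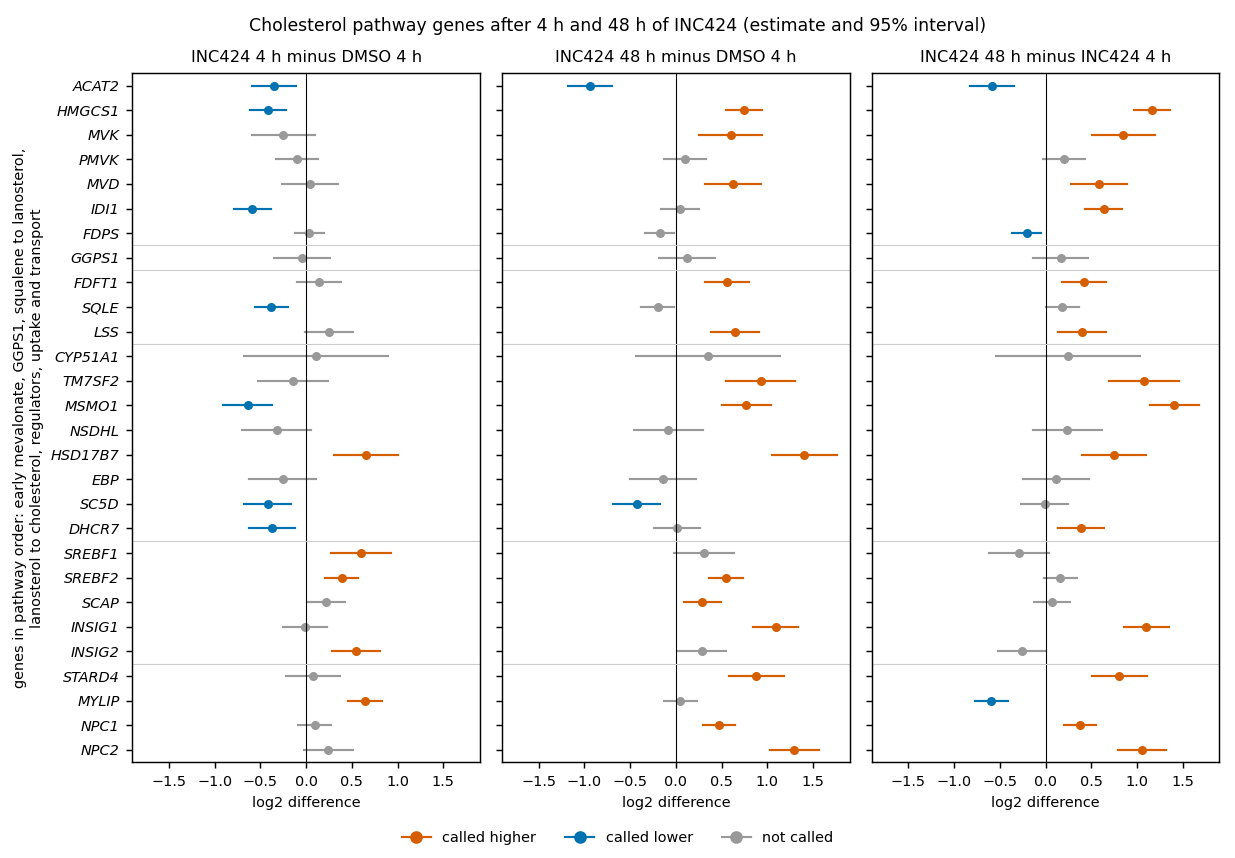
Fitted log2 differences (x axis) of the 28 genes (y axis, in pathway order) for INC424 4 h minus DMSO 4 h, INC424 48 h minus DMSO 4 h and INC424 48 h minus INC424 4 h. Points are estimates, lines 95% intervals, and colours mark genes called higher, called lower or not called. Most points lie right of 0 in the middle and right panels, with 14 called higher in each, while the left panel has 5 called higher and 7 called lower.

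Other features of the cells moved with the 48 h group. The summed share of 8 proliferation markers was 0.151 to 0.160% of reads at 48 h, 0.252 to 0.260% at 4 h, 0.266 to 0.268% with DMSO and 0.182 to 0.204% in naive cells, and 7 of the 8 fell from 4 h to 48 h. Erythroid markers (8 genes) took 0.778 to 0.851% at 48 h and 0.354 to 0.401% at 4 h, with 5 of 8 called higher and none called lower. Megakaryocyte markers took 0.379 to 0.397% at 48 h and 0.277 to 0.310% at 4 h, with 5 of 11 called higher and 2 called lower. Squamous markers took 0.000380 to 0.0218% at 48 h (highest in library 3), 0.000280 to 0.000960% at 4 h and 0.00127 to 0.00697% with DMSO. Without the 4 libraries of the series richest in these markers (that library 3 among them) 14 of the 28 genes were called between 48 h and 4 h. The share of all genes called without them is not given here. The part of these markers in the results was not tested, and in bulk RNA a change in the mix of cells and a change in RNA per cell cannot be told apart.

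Of the early mevalonate genes, HMGCS1 had the widest difference between the times. This gene encodes the cytosolic synthase that makes HMG-CoA, and it read 2757, 2449 and 2181 normalised counts with DMSO, 1792, 1828 and 1889.9 after 4 h of INC424 and 4388, 4174 and 3804 after 48 h. The 3 groups did not overlap: the level fell at 4 h (log2 -0.42, SE 0.09, adjusted p = 0.00491) and at 48 h stood above both (log2 1.16, SE 0.09, adjusted p = 7.52e-07 against 4 h, log2 0.75 against DMSO). IDI1, the isomerase that interconverts the isoprenoid building blocks, read 1399, 1194 and 1101 with DMSO, 812, 804 and 825 at 4 h and 1273, 1236 and 1285 at 48 h. Every 4 h library lay below the DMSO libraries (log2 -0.59, SE 0.09, adjusted p = 0.000523), and the 48 h libraries were back within the DMSO range (log2 0.64, SE 0.09, adjusted p = 0.000186 against 4 h). ACAT2, the thiolase that joins 2 acetyl-CoA molecules at the head of the pathway, moved the other way with time. It read 1754, 1507 and 1619 with DMSO, 1224, 1260.0 and 1335 at 4 h and 766, 885 and 901 at 48 h. The groups stepped down without overlap (log2 -0.35, SE 0.11, adjusted p = 0.0375 for 4 h against DMSO, log2 -0.58, SE 0.11, adjusted p = 0.00126 for 48 h against 4 h). The 4 h call of ACAT2 passed in only 6 of the 12 fits that each leave out 1 library.

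MVK and MVD did not pass the test at 4 h and rose by 48 h. MVK, mevalonate kinase, read 318, 398 and 410.4 with DMSO, 342, 306 and 296 at 4 h and 512, 551 and 645 at 48 h. Its 48 h libraries lay above all others (log2 0.85, SE 0.16, adjusted p = 0.00114 against 4 h), and the 4 h and DMSO libraries overlapped (log2 -0.25, 95% interval -0.59 to 0.09). MVD, the decarboxylase that makes isopentenyl diphosphate, read 288, 310.5 and 399 with DMSO, 341, 368 and 309 at 4 h and 511, 479 and 532 at 48 h. Again only the 48 h libraries stood clear of the others (log2 0.58, SE 0.14, adjusted p = 0.00693 against 4 h). FDPS, which builds farnesyl diphosphate at the branch to prenylation, read 4778, 4652 and 5166 with DMSO, 5285, 4766 and 4876 at 4 h and 4096, 4381 and 4456 at 48 h. Its fall from 4 h to 48 h was small (log2 -0.21, SE 0.07, adjusted p = 0.0493) and passed in only 2 of the 12 fits that leave out a library. PMVK, the second kinase of the mevalonate steps, ranged from 802 to 1383 over the 24 libraries, and GGPS1, which makes geranylgeranyl diphosphate for prenylation, from 785 to 1361. Neither was called in the 3 comparisons with INC424 in naive cells. GGPS1 and TBCE overlap on 1 strand, so their reads may be split, and MVK and ACAT2 overlap genes of the opposite strand (MMAB, and TCP1 and SOD2).

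The steps from farnesyl diphosphate to lanosterol commit carbon to sterol. FDFT1, squalene synthase, read 5916, 6025 and 5769 with DMSO, 6723, 6583 and 6176 at 4 h and 8346, 8752 and 8963 at 48 h. The 3 groups did not overlap, and the 48 h level was called higher than both others (log2 0.42, SE 0.11, adjusted p = 0.0114 against 4 h, log2 0.56, SE 0.11, adjusted p = 0.000872 against DMSO), while the value at 4 h was not called (log2 0.14, adjusted p = 0.441). LSS, the cyclase that folds squalene epoxide into lanosterol, read 4345, 4964 and 5383 with DMSO, 6093, 5896 and 5399 at 4 h and 7587, 7644 and 7686 at 48 h. Its 48 h libraries were the highest of the 9 (log2 0.40, SE 0.12, adjusted p = 0.0245 against 4 h), and that call passed in 7 of 12 fits with 1 library left out. SQLE, squalene epoxidase, a rate-controlling enzyme, went down at 4 h. It read 3705, 3882 and 3709 with DMSO, 2619, 2995 and 3084 at 4 h and 3349, 3316 and 3182 at 48 h. All 3 libraries at 4 h lay below DMSO (log2 -0.38, SE 0.08, adjusted p = 0.00501), and the 48 h libraries sat between the groups (log2 0.18 against 4 h, adjusted p = 0.118).

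Of the 28 genes the widest difference between the times was that of MSMO1, in the steps from lanosterol to cholesterol. MSMO1, an oxidase that takes part in removing methyl groups after lanosterol, read 450.2, 381 and 373 with DMSO, 238, 287 and 249 at 4 h and 634, 777 and 649 at 48 h. The 4 h libraries were all below DMSO (log2 -0.64, SE 0.13, adjusted p = 0.00237) and the 48 h libraries all above it (log2 0.77, SE 0.13, adjusted p = 0.000143), and the difference between the times was log2 1.41 (adjusted p = 2.26e-06). TM7SF2, a sterol reductase that acts on the product of lanosterol demethylation, read 291, 366 and 410.4 with DMSO, 338, 355 and 268 at 4 h and 635, 718 and 659 at 48 h. It did not differ at 4 h beyond its error (log2 -0.15, 95% interval -0.53 to 0.23) and rose by 48 h (log2 1.07, SE 0.18, adjusted p = 0.000437 against 4 h). HSD17B7, the ketosteroid reductase of demethylation, read 148, 107 and 119 with DMSO, 206, 182 and 197 at 4 h and 327, 375 and 290.4 at 48 h. It was the only one of the 28 called higher at 4 h, at 48 h and again between the 2 times (log2 0.65, SE 0.16, adjusted p = 0.0112 at 4 h, log2 0.75, SE 0.16, adjusted p = 0.00331 from 4 h to 48 h). Its pseudogene HSD17B7P2 was in the table with a mean of 77.2, against 230.0 for the gene, so reads may be split between them, as they may between TM7SF2 and VPS51, which overlap on 1 strand.

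The last enzymes of the pathway gave smaller values. DHCR7, which reduces the last double bond to yield cholesterol, read 1419, 1587 and 1827 with DMSO, 1341, 1289.8 and 1101 at 4 h and 1542, 1548 and 1774 at 48 h. It was lower at 4 h than with DMSO (log2 -0.37, SE 0.12, adjusted p = 0.0371, a call that passed in 6 of 12 fits with 1 library left out) and rose by 48 h to the DMSO range (log2 0.38, SE 0.12, adjusted p = 0.0225). SC5D, the desaturase before it, read 955, 887 and 861 with DMSO, 571, 716 and 746 at 4 h and 706, 712 and 594 at 48 h. Both INC424 groups lay below DMSO without overlap (log2 -0.42, SE 0.12, adjusted p = 0.0223 at 4 h, log2 -0.43, SE 0.12, adjusted p = 0.00821 at 48 h), and they overlapped each other. NSDHL and EBP, a dehydrogenase and an isomerase of the same steps, ranged from 330.2 to 718 and from 665 to 1461 and were not called in these comparisons. CYP51A1, the lanosterol demethylase, was read at only 13.8 to 60.1 counts, below its processed copy CYP51P2 on average (35.8 against 46.9), so its reads may be split, and the 95% interval of its difference at 48 h against DMSO ran from -0.44 to 1.14.

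Among the regulators, the 2 SREBP genes rose together at 4 h. SREBF2, whose product mainly drives cholesterol synthesis, read 11270.3, 13312 and 13777 with DMSO, 16153, 17654 and 16207 at 4 h and 18252, 18649.8 and 19035 at 48 h. Both INC424 groups stood above DMSO (log2 0.39, SE 0.09, adjusted p = 0.00522 at 4 h, log2 0.55, SE 0.09, adjusted p = 0.000101 at 48 h), with a difference between the times that was not called (log2 0.16). SREBF1, whose products mainly drive fatty acid synthesis, read 3501, 4270.4 and 4862 with DMSO, 6724, 6820.4 and 5538 at 4 h and 5447, 5256 and 4855 at 48 h. It rose at 4 h (log2 0.60, SE 0.15, adjusted p = 0.0118), and at 48 h its range touched that of DMSO (log2 0.31, adjusted p = 0.108). Part of SREBF1 overlaps RAI1 on the opposite strand. SCAP, the escort, read 3850.4, 4795 and 5223 with DMSO, 5322, 5485 and 5203 at 4 h and 5582, 5615 and 5619 at 48 h, and was called only at 48 h against DMSO (log2 0.29, SE 0.09, adjusted p = 0.0198).

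Of the 2 INSIG genes, which encode the anchors that retain SCAP, INSIG2 rose at 4 h and INSIG1 by 48 h. INSIG1, the SREBP target, read 619, 587 and 671 with DMSO, 610.3, 553 and 705 at 4 h and 1313, 1340.4 and 1342 at 48 h. DMSO and 4 h overlapped (log2 -0.01, 95% interval -0.26 to 0.23), and every 48 h library was above them (log2 1.10, SE 0.11, adjusted p = 8.5e-06 against 4 h). INSIG2, which is less dependent on SREBPs, read 393, 362 and 334 with DMSO, 549.9, 584 and 465 at 4 h and 416, 430.0 and 487 at 48 h. It rose at 4 h (log2 0.55, SE 0.12, adjusted p = 0.00545), while its values at 48 h against DMSO (log2 0.29, adjusted p = 0.065) and against 4 h (log2 -0.26, adjusted p = 0.128) did not pass.

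Of the uptake and transport genes, NPC2, NPC1 and STARD4 rose between the times and MYLIP fell. NPC2, the soluble protein that hands cholesterol to NPC1 in lysosomes, read 1042, 938 and 961 with DMSO, 1093, 1164 and 1221 at 4 h and 2259, 2527 and 2440.2 at 48 h. The 48 h libraries were all above the others (log2 1.05, SE 0.12, adjusted p = 2.63e-05 against 4 h). NPC1, the membrane exporter, read 718, 704 and 675 with DMSO, 718, 742 and 781 at 4 h and 964, 1007 and 941 at 48 h, with the 48 h libraries again above the others (log2 0.38, SE 0.08, adjusted p = 0.00347 against 4 h). STARD4, a soluble sterol carrier and SREBP target, read 425, 348 and 349 with DMSO, 315, 434 and 441 at 4 h and 663, 751 and 649 at 48 h. Its 48 h libraries also stood clear of both other groups (log2 0.81, SE 0.14, adjusted p = 0.000607 against 4 h). MYLIP encodes a ubiquitin ligase that sends lipoprotein receptors to degradation and is a target of the liver X receptors, which sense oxysterols. It read 877, 842 and 875 with DMSO, 1399, 1408 and 1246 at 4 h and 834, 919 and 933 at 48 h. Its level rose at 4 h (log2 0.64, SE 0.09, adjusted p = 0.000113) and fell from there by 48 h (log2 -0.59, SE 0.09, adjusted p = 0.000136) to a range that overlapped DMSO.

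**Figure D2:**
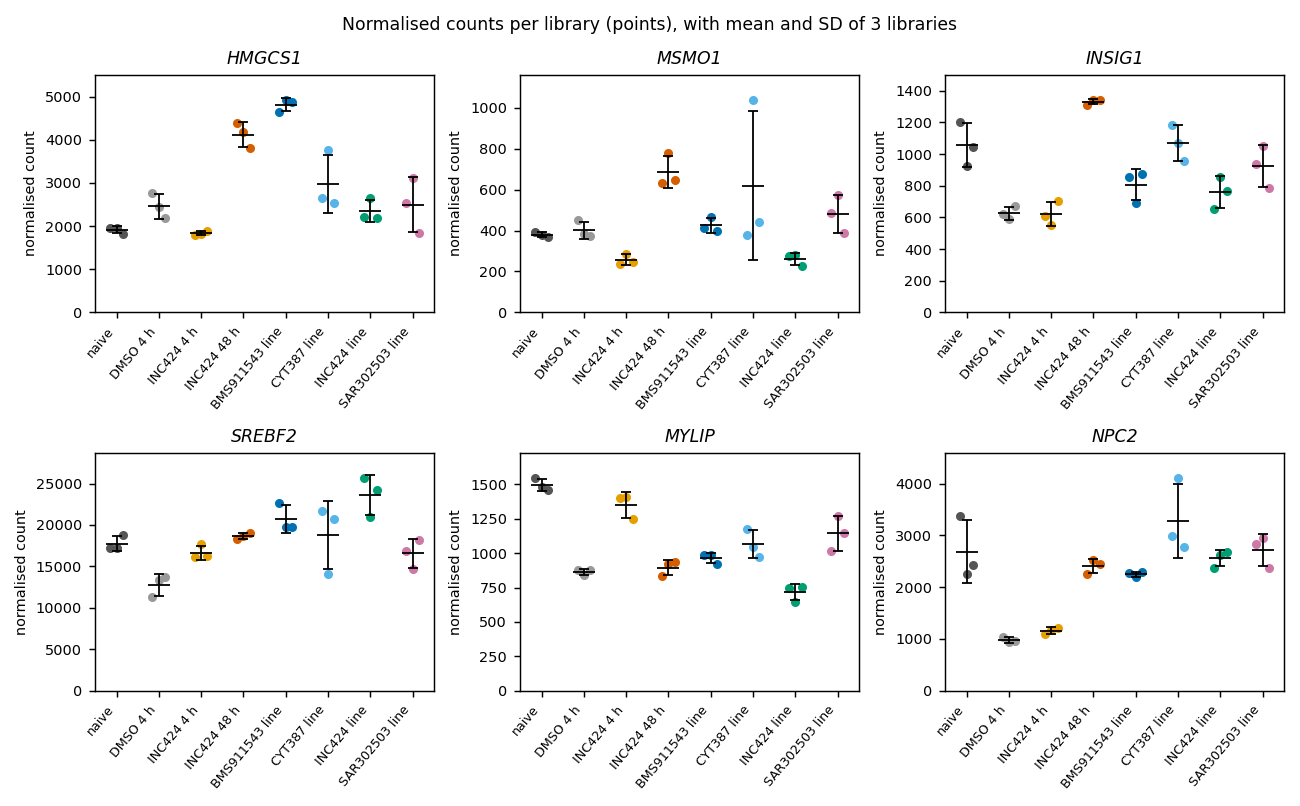
Normalised counts (y axis, from 0) of HMGCS1, MSMO1, INSIG1, SREBF2, MYLIP and NPC2 in the 8 groups (x axis). Points are libraries, the wide tick is the mean of 3 and the bar is the SD. HMGCS1 and MSMO1 dip at 4 h of INC424 and stand highest among the naive-cell groups at 48 h, MYLIP is high at 4 h of INC424 but highest in naive cells with no addition, and the CYT387 line shows 1 library far above the other 2 for MSMO1.

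The choice of control bears on these directions, because DMSO at 4 h and naive cells differed. Of the 28 genes, 15 were called between them, 5 higher and 10 lower with DMSO (42.1% of all genes, 19.8% higher and 22.3% lower). The 10 lower included 4 of the 5 regulators and all 4 transport genes. NPC2 read 3376, 2248 and 2420.4 in naive cells (log2 -1.43, SE 0.12, adjusted p = 7.38e-07 for DMSO against naive), MYLIP 1545, 1484 and 1456 (log2 -0.79, SE 0.09, adjusted p = 5.12e-06) and SREBF2 17231, 17263 and 18771 (log2 -0.48, SE 0.09, adjusted p = 0.000468). For each of these genes every naive library was above every DMSO library. INSIG1, SREBF1, INSIG2, STARD4, NPC1, FDFT1 and HSD17B7 were the others lower with DMSO, at log2 -0.77 (HSD17B7) to -0.60 (INSIG2). The 5 higher with DMSO were enzymes, led by ACAT2, which read 940.0, 866 and 710.3 in naive cells (log2 0.96, SE 0.11, adjusted p = 9.99e-06), with DHCR7 (log2 0.54), HMGCS1 (log2 0.35), SQLE (log2 0.24) and FDPS (log2 0.20). The FDPS call passed in only 1 of 12 fits with 1 library left out, and the SQLE call in 8 of 12. The labels say nothing of how the naive libraries were handled beside the DMSO libraries.

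With naive cells as the control, an alternative chosen after seeing the data, SREBF1, SREBF2, INSIG2, MYLIP and HSD17B7 were not higher at 4 h. Their differences were -0.15, -0.09, -0.05, -0.15 and -0.12 on the log2 scale, none of them called. At 4 h 10 genes were then called, 2 higher and 8 lower (27.8% of all genes, 12.7% higher and 15.1% lower). IDI1 (log2 -0.40, SE 0.09, adjusted p = 0.00672) and MSMO1 (log2 -0.56, SE 0.13, adjusted p = 0.00424) were lower against both controls, and ACAT2, which had fallen against DMSO, was higher than naive cells (log2 0.61, SE 0.11, adjusted p = 0.00107). The other 6 called lower than naive cells were NPC2 (log2 -1.19, SE 0.12, adjusted p = 1.01e-05), INSIG1 (log2 -0.76), STARD4 (-0.69), FDFT1 (-0.60), NPC1 (-0.51) and PMVK (-0.36), none of them called against DMSO, and FDPS was higher (0.23). HMGCS1 (log2 -0.06), SQLE (-0.14), SC5D (-0.25) and DHCR7 (0.17) were not called against naive cells. At 48 h 11 were called, 9 higher and 2 lower (36.4% of all genes, 17.3% higher and 19.1% lower). HMGCS1 (log2 1.10, SE 0.09, adjusted p = 5.07e-07), TM7SF2 (log2 1.16), MSMO1 (0.84), MVK (0.79), LSS (0.71), MVD (0.70), HSD17B7 (0.64) and INSIG1 (0.34) were higher than both controls at 48 h. DHCR7 was higher than naive cells only (0.56), and SREBF1 (-0.44) and MYLIP (-0.74) were lower than naive cells only. The 48 h levels of NPC1, NPC2, STARD4, SREBF2, FDFT1 and SCAP, which were above DMSO, were not called different from naive cells (log2 -0.13, -0.13, 0.12, 0.07, -0.18 and 0.20). Nor were those of ACAT2 and SC5D, which were below DMSO at 48 h (log2 0.03 and -0.26 against naive cells).

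**Figure D3:**
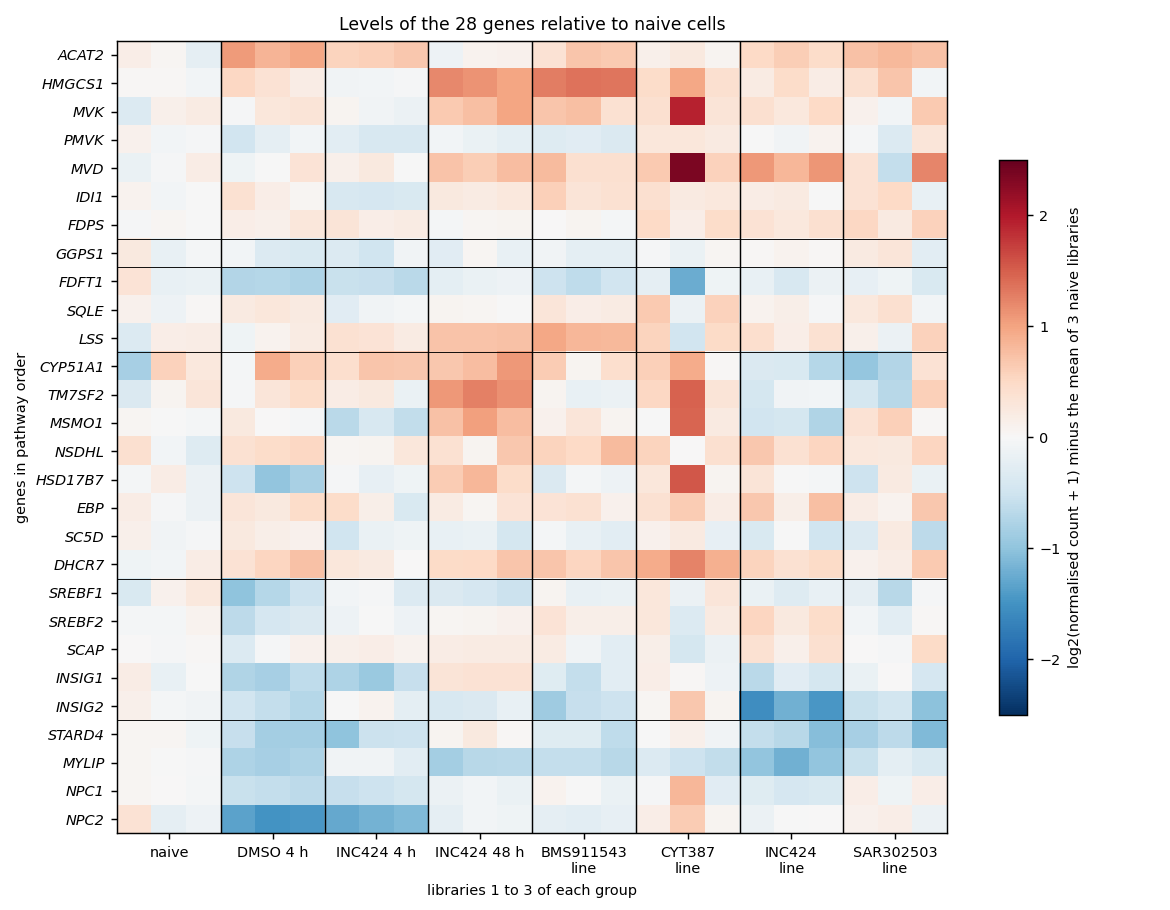
Log2(normalised count + 1) of the 28 genes (rows, in pathway order) in 24 libraries (columns, 3 per group) minus the mean of the 3 naive libraries, red for higher and blue for lower. HMGCS1 is red at 48 h of INC424 and in the BMS911543 line, most regulators and all transport genes in the lower rows are blue with DMSO, and library 2 of the CYT387 line (middle column of its group) is unlike its 2 neighbours in MVK, MVD, TM7SF2, MSMO1, HSD17B7 and FDFT1.

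The comparisons of persistent lines with naive cells ask how the pathway stood after continuous growth in an inhibitor. With all 15 libraries, the rises called were in enzyme genes, and the falls were in INSIG2, MYLIP and STARD4. These calls were few, and in this fit the 28 were called about as often as all genes in the CYT387, INC424 and SAR302503 lines. For the line in BMS911543, 6 of the 28 genes were called, 4 higher and 2 lower (16.2% of all genes, 6.05% higher and 10.1% lower). In CYT387, 3 of the 28 genes were called, 2 higher and 1 lower (11.1% of all genes, 6.07% higher and 4.99% lower). In INC424, 4 of the 28 genes were called, 1 higher and 3 lower (15.3% of all genes, 6.27% higher and 9.06% lower). In SAR302503, 3 of the 28 genes were called, 2 higher and 1 lower (11.4% of all genes, 4.81% higher and 6.62% lower). These fits share 1 estimate of the spread, which includes library 2 of the CYT387 line. Without that library the counts were 10 for the BMS911543 line (28.6% of all genes), 4 for the CYT387 line (12.4%), 13 for the INC424 line (26.9%) and 5 for the SAR302503 line (23.6%). The 13 of 28 in the INC424 line were then above the share of all genes. In that fit 7 were higher and 3 lower in the BMS911543 line, 3 and 1 in CYT387, 7 and 6 in INC424, and 2 and 3 in SAR302503. Enzyme genes newly called higher were MVK, IDI1 and NSDHL (BMS911543), FDPS and SQLE (CYT387), and MVD, FDPS, NSDHL, EBP and DHCR7 (INC424). SREBF2 was also higher in the INC424 line. Newly called lower were FDFT1 in the BMS911543 line and MSMO1, INSIG1 and NPC1 in the INC424 line. INSIG2 and MYLIP were newly called lower in the SAR302503 line. A moderated F test found 8 of the 28 to differ among the 4 lines (29.4% of all genes), and 13 without that library (43.3%). Both counts were near the share of all genes. The 8 were ACAT2, HMGCS1, PMVK, MSMO1, DHCR7, INSIG2, STARD4 and MYLIP. The labels give no concentrations, so the lines were not compared at matched doses, and each inhibitor is 1 line.

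Markers of cell state also differed between the lines and naive cells. Erythroid markers took 1.25 to 1.41% of reads in the BMS911543 line, 0.241 to 0.759% in the CYT387 line, 1.19 to 1.38% in the INC424 line and 0.869 to 1.23% in the SAR302503 line, against 0.263 to 0.308% in naive cells. Of the 8 erythroid markers, 6, 4, 5 and 4 were called higher in these lines in that order. In the CYT387 line 1 of the 8 was called lower. Proliferation markers took 0.288 to 0.299% in the INC424 line (5 of 8 called higher) and 0.273 to 0.304% in the SAR302503 line (6 of 8 called higher), against 0.182 to 0.204% in naive cells, 0.205 to 0.219% in the BMS911543 line (2 of 8) and 0.166 to 0.236% in the CYT387 line (none called). Squamous markers took 0.00543 to 0.0267% in the INC424 line (1 of 10 called higher) and 0.00760 to 0.106% in the SAR302503 line (2 of 10), against 0.000280 to 0.00190% in naive cells. Without the 4 libraries richest in squamous markers the counts of the 28 genes called were 13, 6, 14 and 9 for the lines in BMS911543, in CYT387, in INC424 and in SAR302503. Library 2 of the CYT387 line is among the 4. Without it alone, 28.6%, 12.4%, 26.9% and 23.6% of all genes were called in that order. Shares of all genes without the 4 are not given here, so these counts are not read as a result about the 28. The part of these markers in the line results was not tested.

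HMGCS1 was highest in the BMS911543 line. It read 4655, 4922 and 4876 there, 2640.5, 3759 and 2535 in the CYT387 line, 2200.0, 2649 and 2194 in the INC424 line and 2539.7, 3111 and 1834 in the SAR302503 line, against 1962, 1968 and 1826 in naive cells. The BMS911543 libraries lay above all other libraries of the series (log2 1.33, SE 0.18, adjusted p = 0.000126 against naive). The rise in the CYT387 line (log2 0.61, SE 0.18, adjusted p = 0.0449) passed in 4 of 15 fits with 1 library left out and was not called without its library 2 (log2 0.43, adjusted p = 0.109). The F test among the lines gave an adjusted p of 0.00173, and 8.02e-05 without that library. LSS was also called higher in the BMS911543 line, at 9153, 8251 and 8135 against 3658, 5239 and 5263 in naive cells (log2 0.87, SE 0.25, adjusted p = 0.0248).

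ACAT2 and DHCR7, the first and last enzymes of synthesis among the 28, rose in 3 and 2 lines. ACAT2 read 1076, 1350.0 and 1307 in the BMS911543 line, 913, 993 and 879 in the CYT387 line, 1176, 1279 and 1146 in the INC424 line and 1377, 1465 and 1385 in the SAR302503 line, against 940.0, 866 and 710.3 in naive cells. It rose in all but the CYT387 line (log2 0.57, SE 0.14, adjusted p = 0.0107 for BMS911543, log2 0.52 for INC424 and log2 0.76 for SAR302503). DHCR7 read 1777, 1589 and 1791 in the BMS911543 line, 2097, 2588 and 2031 in the CYT387 line, 1614, 1436 and 1524 in the INC424 line and 1188, 1243 and 1733 in the SAR302503 line, against 1021, 1047 and 1245 in naive cells. It was called higher in the CYT387 line (log2 1.02, SE 0.16, adjusted p = 0.000714, and log2 0.91 without library 2) and in the BMS911543 line (log2 0.64, SE 0.16, adjusted p = 0.0113). Without library 2 of the CYT387 line it was also called higher in the INC424 line (log2 0.47, adjusted p = 0.0191). FDPS rose in the SAR302503 line (5788 ± 729 against 4244 ± 109 in naive cells, log2 0.44, SE 0.13, adjusted p = 0.036), a call that passed in 5 of 15 fits with 1 library left out. MSMO1 read 412, 468 and 399 in the BMS911543 line, 378, 1037 and 443 in the CYT387 line, 274, 282 and 226 in the INC424 line and 486, 572 and 387 in the SAR302503 line, against 393, 379.6 and 369 in naive cells. Its 3 INC424-line values were the lowest of the lines (log2 -0.55 against naive, adjusted p = 0.245, and 0.0213 without library 2 of the CYT387 line). PMVK differed among the lines (adjusted p = 0.0448 by the F test), with 893 ± 20.5 in the BMS911543 line and 1342 ± 34.1 in the CYT387 line, but was not called in any line against naive cells.

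Of the regulators and transport genes, INSIG2, MYLIP and STARD4 each fell in at least 2 lines. INSIG2 read 187, 239 and 201 in the INC424 line, 296, 369 and 382 in the BMS911543 line, 372, 400.3 and 269 in the SAR302503 line and 568, 874 and 580.1 in the CYT387 line, against 605, 534 and 518 in naive cells. The INC424 line was below every other library of the series (log2 -1.40, SE 0.21, adjusted p = 0.000289 against naive), and the BMS911543 line was also lower (log2 -0.66, SE 0.21, adjusted p = 0.046, a call that passed in 5 of 15 fits with 1 library left out). The SAR302503 line was as low (log2 -0.68). It was not called with all 15 libraries but was called without library 2 of the CYT387 line (adjusted p = 0.00965). The F test among lines gave an adjusted p of 0.000311. MYLIP read 749.6, 648 and 757 in the INC424 line, 987, 987 and 925 in the BMS911543 line, 1176, 1048 and 974 in the CYT387 line and 1017, 1269 and 1148 in the SAR302503 line. In each line all 3 libraries lay below naive cells, and the fall was called in the INC424 (log2 -1.06, SE 0.13, adjusted p = 4.22e-05), BMS911543 (log2 -0.63) and CYT387 lines (log2 -0.49). Without library 2 of the CYT387 line the fall was also called in the SAR302503 line (log2 -0.39, adjusted p = 0.0315). STARD4 read 509.7, 513 and 409 in the BMS911543 line, 626, 689 and 595 in the CYT387 line, 416, 389 and 300.3 in the INC424 line and 353, 403 and 292 in the SAR302503 line, against 654, 656 and 590.1 in naive cells. It fell in the SAR302503 (log2 -0.87, SE 0.18, adjusted p = 0.00485) and INC424 lines (log2 -0.79, SE 0.18, adjusted p = 0.00639). SREBF2 and SCAP were not called in any line with all 15 libraries, and SREBF2 passed in the INC424 line without library 2 of the CYT387 line (23634 ± 2372 against 17755 ± 880.2 in naive cells, log2 0.41, SE 0.12, adjusted p = 0.0142).

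**Figure D4:**
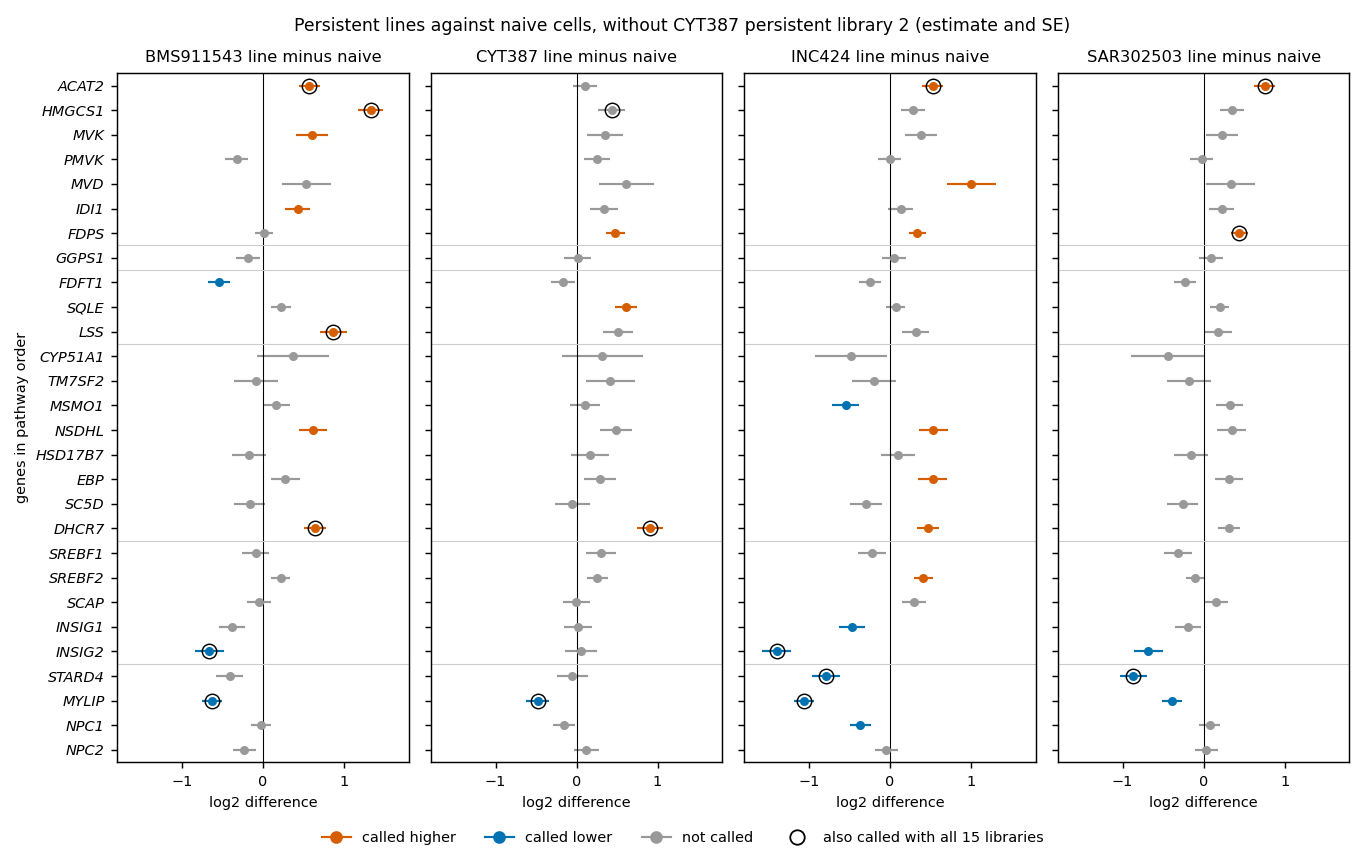
Fitted log2 differences (x axis, bars are SE) of the 28 genes (y axis) in each persistent line against naive cells, without library 2 of the CYT387 line. Colours mark genes called higher, called lower or not called in that fit, and circles mark genes also called with all 15 libraries. HMGCS1 stands farthest right in the BMS911543 line at 1.33 and INSIG2 farthest left in the INC424 line at -1.40.

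INC424 was used both briefly and in a persistent line. Against naive cells, HMGCS1 was at log2 1.10 after 48 h and 0.29 in the line, INSIG1 at 0.34 and -0.47, STARD4 at 0.12 and -0.79, INSIG2 at -0.31 and -1.40, and MYLIP at -0.74 and -1.06. These pairs share the naive libraries and come from different fits, and the difference between them was not tested.

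Other genes of sterol and lipid metabolism were read from lists chosen with earlier results in view. Of 8 liver X receptor genes and targets, 4 were called higher at 4 h of INC424 against DMSO and none lower (11.5% and 8.56% of all genes), with a list median of 0.54 against -0.01 over all genes. ABCA1, the pump that exports cholesterol, was 615 ± 55.2 against 300.4 ± 29.9, log2 1.03 (first value INC424), and ABCA7, a related transporter, was 1606 ± 152 against 814 ± 138, log2 0.99. From 4 h to 48 h 3 of the 8 rose and 3 fell (14.8% and 14.9% of all genes): ABCA1 dropped (119.7 ± 19.6 against 615 ± 55.2, log2 -2.36, 48 h first) and ABCA7 rose further (4059 ± 141 against 1606 ± 152, log2 1.34). Naive cells had more ABCA1 than either (-1.88 for DMSO against naive, log2). Of the 8 genes, 6 were called lower and none higher with DMSO than in naive cells (22.3% and 19.8% of all genes, list median -0.87). The rises at 4 h are thus measured from a control that lay below naive cells. ABCA1 was also lower in the BMS911543 (-2.84), INC424 (-2.68) and SAR302503 lines (-2.29, log2 against naive). Of 14 genes for SREBP processing and turnover, 5 were called higher and 1 lower at 4 h (11.5% and 8.56% of all genes, list median 0.15). SEC24D, a coat protein of the vesicles that leave the endoplasmic reticulum, was 2241 ± 146 against 1500.1 ± 114, log2 0.58, and MBTPS1, the protease that makes the first cut in SREBPs, was 2628 ± 226 against 1959 ± 156, log2 0.42. At 48 h 5 were higher and 3 lower against DMSO (24.8% and 23.4% of all genes), led by the ubiquitin ligase gene FBXW7, whose product marks nuclear SREBPs for degradation (1678 ± 213 against 891 ± 119, log2 0.91). Both SEC24D and FBXW7 were lower with DMSO than in naive cells (-0.77 and -0.78), which read 2561 ± 108 for SEC24D, above its level at 4 h, and 1523 ± 52.6 for FBXW7.

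Genes of the branches that leave the pathway were mostly lower or mixed. Of 14 genes of the isoprenoid branch and prenylation, 10 were called lower and 1 higher at 48 h against DMSO (23.4% and 24.8% of all genes, list median -0.36 against 0.00 over all genes). ZMPSTE24, a protease that trims farnesylated prelamin A, was 503 ± 54.1 against 1713 ± 188, log2 -1.77, and PDSS1, which makes the side chain of ubiquinone, was 186 ± 46.7 against 547 ± 43.8, log2 -1.58. Both genes, like the methyltransferase gene ICMT, were also lower than DMSO at 4 h (-0.68, -0.71 and -0.70). ZMPSTE24 and ICMT were themselves higher with DMSO than in naive cells (1.26 and 1.05). Of 17 fatty acid genes under SREBP1, 6 were higher and 7 lower at 48 h against DMSO (24.8% and 23.4% of all genes, list median 0.04). The largest falls were in ACSL1, an acyl-CoA synthetase (245 ± 23 against 729.8 ± 83.8, log2 -1.57), and ME1, the malic enzyme that supplies NADPH (173 ± 24.5 against 456 ± 95.9, log2 -1.38). Naive cells read 268 ± 50.7 for ME1, below DMSO, and 1609 ± 130 for ACSL1, above DMSO. ACSL1 was lower than naive cells in all 4 lines as well (log2 -1.34 to -2.25). Of 18 genes for storage and transport of cholesterol, 6 were higher and 6 lower at 48 h against DMSO (the same shares of all genes, list median 0.15). GRAMD1A, an endoplasmic reticulum protein that accepts cholesterol from the plasma membrane, was 2298 ± 119 against 1074 ± 179, log2 1.11. GRAMD1A was itself lower with DMSO than in naive cells (log2 -0.86), which read 1941 ± 128. The lipoprotein receptor gene LRP8 was 1695 ± 100.5 against 3601 ± 280.0, log2 -1.09, and its mean in naive cells (2766 ± 684) was below that with DMSO.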

How the data were processed

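Poly(A) RNA was fragmented with RNase III, made into libraries with 16 PCR cycles and sequenced on the Ion Proton, per the labels' protocols. The deposited table gives 1 normalised signal per gene and library, and each column reads as counts over 1 size factor. The submitters' processing notes name BWA 0.7.5.1, HTSeq 0.5.3p3, DESeq 1.10.1, hg19 and GRCh37, with no role for each. Whether counting used strand is not given in the sources used here. All values above 0 were whole multiples of 1 step per library within 0.01, which gave back whole reads for 100.0% of them. In 3 libraries the step is within 0.01 of 1.

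Values were tested as log2(value + 1) with limma 3.58.1 in R 4.3.3 (empirical Bayes with trend, two-sided) for 20154 genes with at least 10 in at least 3 libraries, with Benjamini-Hochberg adjustment within a comparison. Comparisons among naive cells used their 12 libraries (8 residual degrees of freedom) and those of lines used the lines and naive cells (15 libraries, 10 residual degrees of freedom), because an earlier analysis had shown CYT387 persistent library 2 to stand apart. The members, lists and tests were chosen with earlier results of these data known. Per-library values are printed for members with a mean of at least 50 that passed at 4 h against DMSO or at 48 h against 4 h, and for the regulators. From each further list up to 3 genes with the largest called change could be named. No list here was tested as a set. Alternatives were other pseudocounts, filters and scalings (edgeR 4.0.16), other sets of libraries, a replicate block, a term for the 9 libraries run again or on more lanes, count tests (edgeR, DESeq2 1.42.0) of recovered reads, naive cells as control, and each library left out. The fit was tested on simulated data. Promoters (RefSeq) and overlapping genes (GENCODE) were matched by symbol.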

Additional observations from a re-analysis of the deposited data

Results flagged for a closer look

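For 17 genes the level after 48 h of INC424 differed from that after 4 h (limma, 48 h minus 4 h, 3 libraries each), with no vehicle library at 48 h. The log2 differences above 0 were 1.16 for HMGCS1, 0.85 for MVK, 0.58 for MVD, 0.64 for IDI1, 0.42 for FDFT1, 0.40 for LSS, 1.07 for TM7SF2, 1.41 for MSMO1, 0.75 for HSD17B7 and 0.38 for DHCR7 among enzymes. They were 1.10 for INSIG1, 0.81 for STARD4, 0.38 for NPC1 and 1.05 for NPC2 among the others. Those below 0 were -0.58 for ACAT2, -0.21 for FDPS and -0.59 for MYLIP. DMSO does not enter these differences, but the spread behind the calls was estimated from all 12 libraries of naive cells, the DMSO libraries included.

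By the moderated F test of limma, 8 genes differed among the 4 persistent lines. The adjusted p was 0.0221 for ACAT2, 0.00173 for HMGCS1, 0.0448 for PMVK, 0.0387 for MSMO1, 0.0158 for DHCR7, 0.000311 for INSIG2, 0.00536 for STARD4 and 0.00546 for MYLIP. All 8 were also called without library 2 of the CYT387 line.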

How the results depend on the processing

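With 3 libraries a group, only differences well above the spread within groups can be called. The replicate block gave 11, 16, 16 and 14 called members at 4 h, at 48 h, between the times and for DMSO against naive, and 7 (BMS911543), 3 (CYT387), 4 (INC424), 4 (SAR302503) and 7 (among lines) for the lines. Same-numbered libraries did not deviate together throughout (r -0.629 to 0.436 over 84 pairs, with 23 best matched by their own number), although in 2 of 28 pairs of groups, CYT387 with INC424 persistent among them, all 3 r were over 0.1.

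With naive cells in place of DMSO, of the members called against DMSO, these changed sign at 4 h: ACAT2 0.61, HSD17B7 -0.12, DHCR7 0.17, INSIG2 -0.054, SREBF1 -0.15, SREBF2 -0.091 and MYLIP -0.15. At 48 h these were ACAT2 0.027, FDFT1 -0.18, NPC1 -0.13 and NPC2 -0.13. In 1 fit of all 24 libraries 3 members were called at 4 h, 9 between 48 h and 4 h, 6 in the CYT387, 9 in the INC424 and 5 in the SAR302503 line and 14 among lines. Fits of the compared groups alone called 12 in the BMS911543, 1 in the CYT387 and 11 in the INC424 line. DESeq2 called 6 in the CYT387, 7 in the INC424 and 5 in the SAR302503 line. Without the 4 libraries richest in epithelial RNA (chosen after seeing the data) 13 (BMS911543), 6 (CYT387), 14 (INC424) and 9 (SAR302503) were called in the lines and 20 among them. The cause was not tested.

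Leaving out 1 library at a time gave 9 to 14 called at 4 h, 15 to 20 at 48 h, 14 to 17 between the times, 13 to 15 for DMSO against naive, 3 to 10 (BMS911543), 1 to 4 (CYT387), 3 to 13 (INC424) and 2 to 5 (SAR302503) in the lines and 6 to 13 among lines. Without library 2 of the CYT387 line the counts were 10 (BMS911543), 13 (INC424), 5 (SAR302503) and 13 (among lines). Without BMS911543 library 2 or 3 that line had 3, and without any 1 naive library the CYT387 line had 1. Other pseudocounts, filters, scalings and edgeR kept every count within 1.5 times.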
